A study of Bos taurus with 16 samples.

Results

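The effect of rumen-protected methionine (RPM) on endometrial DNA methylation was examined over both pregnancy outcomes together. All 16 of the 16 libraries of the series entered the comparison, 8 from cows supplemented with RPM (MET) and 8 from cows on the control diet (CON). Each diet was made up of 4 libraries from Bos taurus dairy cows that resulted in pregnancy (P) and 4 from cows that resulted in no pregnancy (noP), so the groups were MET_P, MET_noP, CON_P and CON_noP. RPM was given daily from 12 days after calving, and every cow was inseminated at a heat 50 to 64 days postpartum. The endometrial cells were brushed from the uterus 4 to 8 h after insemination. The age of the cows and the number of cows behind each library are not given in the sources used here. P-values therefore measure the spread between libraries.

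Methionine is an essential amino acid that is often short in the diet of lactating cows, and the rumen-protected form passes the rumen without being degraded by its microbes. In cells it is converted to S-adenosylmethionine, the methyl donor that DNA methyltransferases use to place a methyl group on cytosine, mostly where a guanine follows (CpG). Methylation of CpGs at a promoter usually goes with a silent gene, whereas methylation inside the transcribed part of a gene is common in active genes. Reduced representation bisulfite sequencing (RRBS) cuts the genome at MspI sites, which enriches for CpG-dense regions, and reads each cytosine as methylated or not. The value at a site is the percentage of calls that were methylated. The table held 199395 sites on the ARS-UCD1.2 genome, of which 127870 were placed in an annotated gene. The labels of the table give the gene but not whether a site is in an exon, an intron or a promoter.

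The libraries were alike over all sites, with Pearson correlations of 0.914 to 0.965 between any pair, described across sites that are not independent. The read depth at each site is unknown. A library of MET_noP (S17) was the lowest of the MET libraries in mean methylation, and a library of CON_noP (S16) was the lowest of the CON libraries. Where leaving out 1 library changed a call, both values are given.

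Mean methylation was slightly higher in the MET libraries at every level of methylation, but none of the differences passed the test against the spread between libraries. Over all sites, the CON libraries ranged from 61.3% to 65.1% with a median of 62.8%, and the MET libraries from 62.4% to 64.7% with a median of 64.0%. The ranges overlapped almost entirely, although 7 of the 8 MET libraries were above the CON median. The mean was 63.9% ± 0.727 (SD, n = 8) in MET and 63.0% ± 1.25 (SD, n = 8) in CON. The difference was 0.869 percentage points, with a two-sided exact permutation p of 0.116 over the 4900 relabellings of diet within outcome (adjusted p = 0.204 over 7 genome-wide values). It was 0.438 percentage points between MET_P and CON_P and 1.30 between MET_noP and CON_noP. The median over the sites of a library was 78.4% in MET and 76.7% in CON, 1.69 percentage points apart (exact permutation p = 0.0363, adjusted p = 0.12).

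The sites were then split by their mean level over all libraries into 34739 sites under 20%, 68404 from 20% to under 80% and 96252 at 80% and over. In the low class, which lacks the sites that were unmethylated in any library, the CON libraries ranged from 10% to 12.4% (median 11.0%) and the MET libraries from 10.3% to 12.8% (median 11.9%). The MET mean was higher by 0.795 percentage points (exact permutation p = 0.102, adjusted p = 0.204). The intermediate class had the widest spread, from 43.6% to 52.7% in CON (median 46.6%) and from 44.7% to 50.4% in MET (median 49.2%). Its difference of 1.47 percentage points (exact permutation p = 0.263, adjusted p = 0.264) came almost wholly from the noP libraries, with 2.68 percentage points in noP and 0.254 in P. In the class at 80% and over, all 8 MET libraries were above the CON median of 92.8%. There the CON libraries ranged from 92.1% to 93.8% and the MET libraries from 93.0% to 93.9% (median 93.5%), a difference of 0.472 percentage points (exact permutation p = 0.078, adjusted p = 0.204).

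Sites inside annotated genes were higher by 0.986 percentage points in MET (66.9% ± 0.703 against 66.0% ± 1.2, SD, n = 8 each, exact permutation p = 0.071, adjusted p = 0.204). By the median over sites they were higher by 1.59 (exact permutation p = 0.0135, adjusted p = 0.0943). For sites outside annotated genes the difference was 0.661 percentage points (58.4% ± 0.801 against 57.7% ± 1.38, SD, n = 8 each, exact permutation p = 0.264, adjusted p = 0.264). The share of sites above 20% methylation ranged from 77.5% to 83.6% in CON (median 79.7%) and from 77.3% to 83.3% in MET (median 82.3%), a difference of 1.32 percentage points (exact permutation p = 0.226, adjusted p = 0.264). None of these 7 values passed the threshold, and the diets overlapped in each of them.

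**Figure D1:**
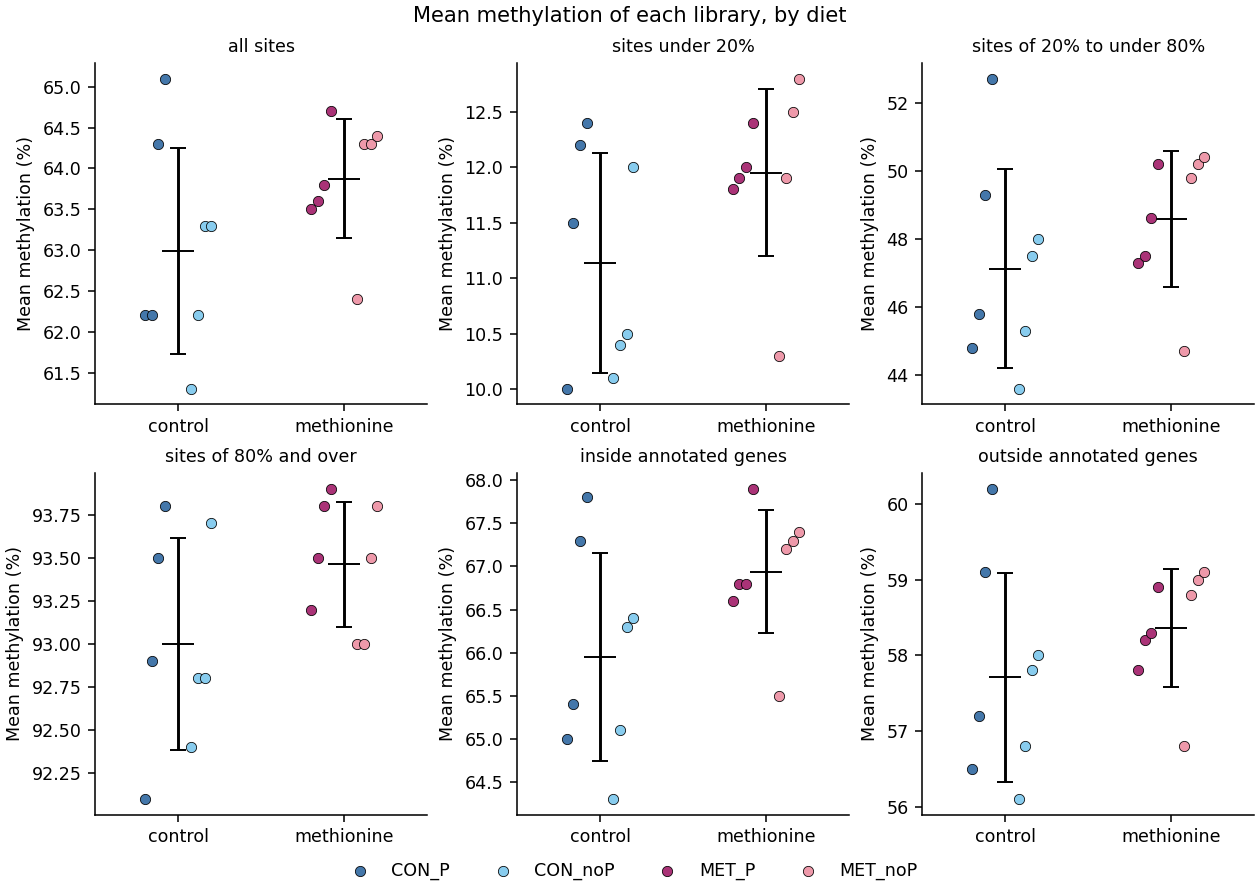
Mean methylation in percent (y axis) of each of the 16 libraries by diet (x axis), over all sites, in 3 classes of site level, and inside and outside annotated genes. Points are libraries coloured by group, and the horizontal line with bars is the mean ± SD of the 8 libraries of a diet. The MET points sit higher on average in every panel and overlap the CON points in every panel.

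The differences were not even over the sets of libraries. Libraries numbered 12 to 19 and those numbered 24 to 31 each hold 2 libraries of every group, and the labels do not say what the numbers stand for. Mean methylation differed by 0.199 percentage points between the diets in the first set and by 1.54 in the second (exact permutation p = 0.833 and 0.0556, where 0.0556 is the smallest p such a set allows). In the first set the intermediate class and the sites outside genes were lower in MET, by -0.239 and -0.21 percentage points.

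By chromosome, the mean over sites was higher in MET on 30 of 30 chromosomes when both outcomes were pooled. It was higher on 30 in the noP libraries and on 21 in the P libraries. Chromosomes share the libraries' overall level, so these counts are not independent observations. The differences ran from 0.356 to 2.19 percentage points with a median of 0.752, and 5 chromosomes had an unadjusted exact permutation p under 0.05. None passed adjustment over the 30, the lowest adjusted p being 0.231. With the median over sites, 17 chromosomes had an unadjusted exact permutation p under 0.05, and chromosome 10 passed adjustment (2.79 percentage points, adjusted p = 0.0245). Within libraries 12 to 19, MET was higher on 16 of the 30 chromosomes, and within libraries 24 to 31 on all 30.

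The X chromosome had the largest difference. It carries one active and one silenced copy in each female cell, and the CpG islands of the silenced copy are methylated. Over its 10346 sites, the CON libraries ranged from 37.5% to 44.0% (median 40.8%) and the MET libraries from 39.9% to 45.7% (median 43.3%). MET was higher at 7117 of the sites (68.8%, against 57.4% of all sites). The mean difference was 2.19 percentage points (exact permutation p = 0.0408, adjusted p = 0.231), with 2.88 in P and 1.49 in noP. It was 2.17 within libraries 12 to 19 and 2.21 within libraries 24 to 31. On chromosome 7, which had the lowest p, the difference was 1.27 percentage points in P and 1.60 in noP (exact permutation p = 0.0224, adjusted p = 0.231). Chromosome 27 had the most unequal pair, with 0.744 percentage points in P and 3.16 in noP. Of its 4440 sites, 1231 were in a CpG island, described below, that differed by 3.04 in P and 9.09 in noP. By the median over sites, chromosome 27 differed by 0.893 with both outcomes pooled (exact permutation p = 0.506, adjusted p = 0.523).

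**Figure D2:**
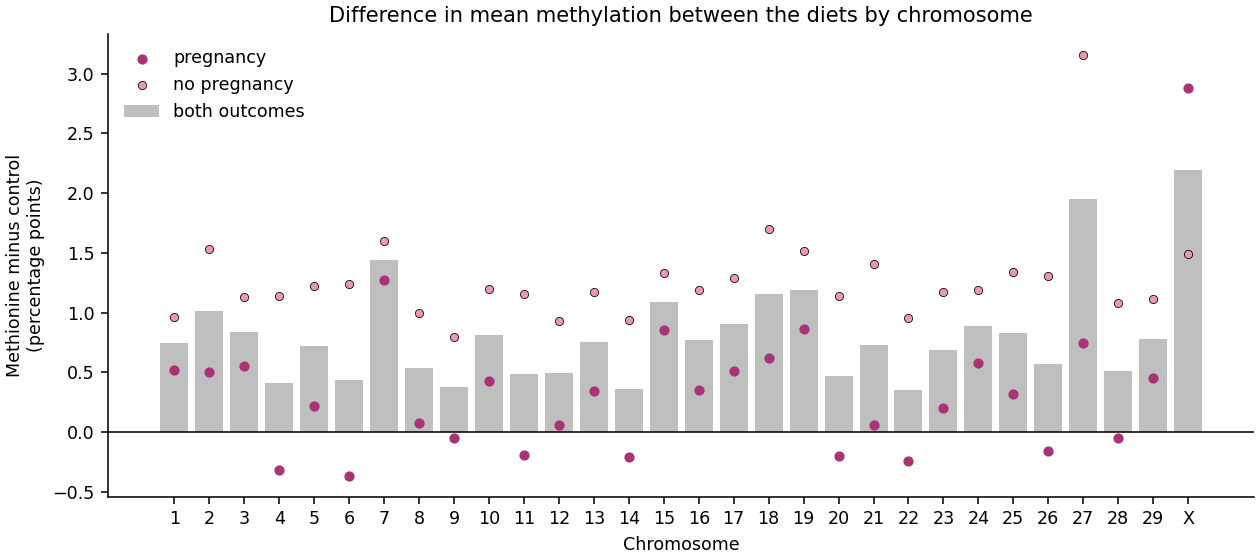
Difference in mean methylation, MET minus CON in percentage points (y axis), for each chromosome (x axis). Bars are the mean of the 2 within-outcome differences and points are the difference within P and within noP, and all 30 bars and all 30 noP points are above 0 while 9 P points are below it.

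The 4 CpG islands that the study singled out between CON_P and CON_noP were looked at next. It named the 3 on chromosomes 27, 18 and 2 between MET_P and MET_noP as well. Because it chose them on these libraries, their direction is not independent evidence. The choice used the CON_P and CON_noP libraries, so a diet difference in P, in noP or pooled over outcomes is not independent of it. The 3 islands on chromosomes 27, 18 and 2, had low methylation, and in each 7 of the 8 MET libraries were above the CON median. The island on chromosome 27 (6217248 to 6225679, 1231 sites) ranged from 9.92% to 25.1% in CON (median 18.3%) and from 14% to 32.4% in MET (median 25.5%). A difference of 6.07 percentage points was found (23.9% ± 6.05 against 17.9% ± 5.15, SD, n = 8 each, exact permutation p = 0.0486, adjusted p = 0.0969 over 4 islands). It was 3.04 percentage points in P and 9.09 in noP, and 1203 of its 1231 sites were higher in MET.

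The island on chromosome 18 (59225247 to 59226552, 159 sites) ranged from 14.8% to 29.4% in CON (median 23.7%) and from 20.1% to 37.2% in MET (median 29%). Its difference was 5.92 percentage points (exact permutation p = 0.0249, adjusted p = 0.0969), with 156 of its sites higher in MET. In the island on chromosome 2 (121571515 to 121575924, 148 sites), the ranges were 11.1% to 24.7% (median 20.4%) in CON and 18.3% to 31.6% (median 23.3%) in MET. The difference there was 4.36 percentage points (exact permutation p = 0.0727, adjusted p = 0.0969). CON_noP was the lowest group in both islands. Its means were 19.7% on chromosome 18 and 17.4% on chromosome 2, against 25.9% and 22.5% in CON_P. Neighbouring sites of an island can share reads, so site counts within it are descriptions. The libraries that were low in one of these 3 islands were low in all of them, S16 and S28 among CON and S17 among MET.

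The part examined of the fourth island, on chromosome 21, was highly methylated and did not follow the others. The study gives differing end coordinates for this island and counts more sites in it, so the part does not stand for the whole island. Its first kilobase with sites (33002585 to 33002904, 39 sites) ranged from 83.8% to 86.5% in CON (median 85.4%) and from 79.1% to 87.3% in MET (median 86.7%). The pooled difference was -0.127 percentage points (exact permutation p = 0.909, adjusted p = 0.909). The outcomes pointed opposite ways, with MET lower by -2.51 percentage points in P and higher by 2.25 in noP. All 4 MET_noP libraries were above all 4 CON_noP libraries (exact permutation p = 0.0286, the smallest that 35 splits allow). For the islands on chromosomes 27 and 18 the call depended on 1 library. Without the MET_noP library S17 the adjusted p became 0.0367 and 0.0294, at differences of 7.69 and 7.17 percentage points, and without the MET_P library S31 it became 0.049 for both, at 7.01 and 6.74.

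The libraries also fall into 4 sets of consecutive numbers, each with 1 library of every group, and the islands were compared again within these sets. MET was above CON in 8 of 8 pairs of the same set and outcome for the islands on chromosomes 27 and 18, by 0.828 to 13.3 and by 0.293 to 12.8 percentage points. It was above in 7 of 8 pairs for the island on chromosome 2 and in 5 of 8 for that on chromosome 21. With diet exchanged within pairs, the adjusted p over the 4 islands was 0.0156 for chromosomes 27 and 18, 0.0208 for chromosome 2 and 0.922 for chromosome 21 (exact permutation p = 0.00781, 0.00781, 0.0156 and 0.922, where 0.00781 is the smallest that 256 relabellings allow). This comparison was chosen after the data were seen, on islands that the study had chosen on these libraries. The labels do not say that a set was handled together. Deviations from the group means over all sites correlated by only -0.132 to 0.117 within sets (median -0.00798). These p-values are therefore not independent evidence of a diet difference.

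**Figure D3:**
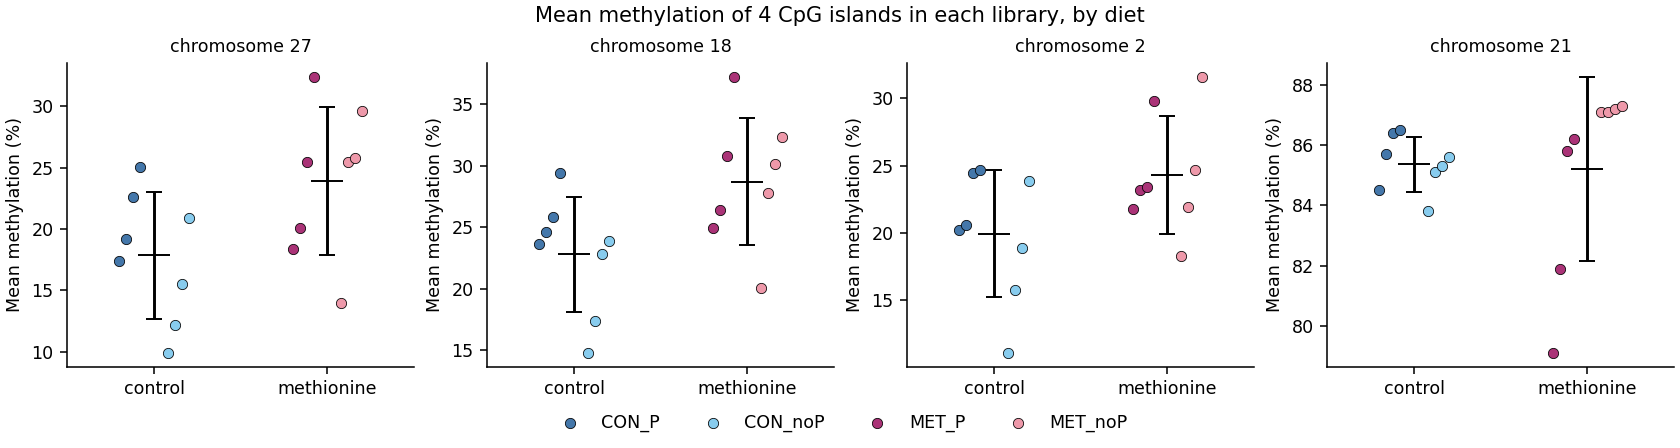
Mean methylation in percent (y axis) of 4 CpG islands in each library by diet (x axis), one panel per chromosome, with group colours and the mean ± SD of 8 libraries. In the panels of chromosomes 27, 18 and 2 the MET libraries reach higher (up to 32.4%, 37.2% and 31.6%) than the CON libraries, with overlap, and in the panel of chromosome 21 the diets do not separate.

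Single sites were compared with limma on M values, the log2 ratio of methylated to unmethylated percentage, with outcome as covariate and Benjamini-Hochberg adjustment. No site of the 199395 passed an adjusted p of 0.05 (0% called, lowest adjusted p 0.302). Neither did any of 26473 windows of 1 kb with at least 3 sites (0% called, lowest adjusted p 0.147) or any of 8695 genes with at least 2 sites (0% called, lowest adjusted p 0.426). The unadjusted p was under 0.05 for 12075 sites (6.06%), 1898 windows (7.17%) and 763 genes (8.78%).

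These features leaned towards higher methylation in MET. Of the sites, 7697 (3.86% of all) were higher and 4378 (2.2%) lower, so that 63.7% were higher. Among the windows 1365 (5.16%) were higher and 533 (2.01%) lower, and among the genes 639 (7.35%) were higher and 124 (1.43%) lower. Whatever their p, 57.4% of all sites, 58.8% of all windows and 65.4% of all genes were higher in MET. Within libraries 12 to 19, 51.9% of the sites and 51.8% of the windows at that p were higher, and within libraries 24 to 31, 62.4% and 77.4%. The lean also depended on the scaling of the libraries. Once the libraries had been shifted to a common median on the M scale, 37.8% of such sites, 48.7% of such windows and 59.8% of such genes were higher in place of 63.7%, 71.9% and 83.7%. The centring moved the median difference over sites from 0.06 to -0.071 on the M scale.

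The sites on either side differed in kind. Sites lower in MET at that p had a median level of 94.0%, and 73.0% of them were in the class at 80% and over, against 48.3% of all sites. Those higher in MET had a median level of 76.2%, with 38.3% in the intermediate class against 34.3% of all sites. The median absolute difference was 8.87 percentage points for the higher and 4.63 for the lower. Of the lower sites 1.69% were on the X chromosome, against 5.38% of the higher and 5.19% of all sites. The 4 islands held 282 of the higher sites (3.66%, beside 0.791% of all sites) and 0 of the lower. Of all sites, 3.86% were higher at an unadjusted p under 0.05. The share was 19.1% in the island on chromosome 27, 18.9% in that on chromosome 18 and 11.5% in that on chromosome 2. In the part examined of the island on chromosome 21, with 39 sites, it was 0%. These p-values come from the same fit that chose the sites, so the makeup is a description.

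Sites chosen in one outcome were looked up in the libraries of the other, which the choice did not use. The 1117 sites (0.56%) higher in MET_P at an unadjusted p under 0.01 were higher by 1.79 percentage points in MET_noP (76.9% ± 1.77 against 75.1% ± 2.70, SD, n = 4 each, exact permutation p = 0.314, adjusted p = 0.629 over 4 tests). All sites together differed by 1.30 in those libraries. The 1289 sites (0.646%) higher in MET_noP differed by 0.608 in the P libraries (exact permutation p = 0.714, adjusted p = 0.743), beside 0.438 over all sites. The 1120 sites (0.562%) lower in MET_P were not lower in the noP libraries, where the difference was 0.453 (exact permutation p = 0.286, adjusted p = 0.629). The 693 sites (0.348%) lower in MET_noP differed by 0.0768 in the P libraries (exact permutation p = 0.743, adjusted p = 0.743). In the outcome where they were chosen, these 4 sets had differed by 13.9, 13.2, -9.63 and -8.33 percentage points. With each library of the tested outcome left out, the differences there ranged from 0.593 to 2.64 for the sites higher in MET_P and from 0.22 to 0.723 for those lower in MET_P. They ranged from -0.382 to 1.7 for the sites higher in MET_noP and from -0.018 to 0.168 for those lower in MET_noP.

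The sites with the lowest p are given without a call. Those higher in MET were nearly fully methylated in it. At chr5:109201989, in MICAL3, which encodes a monooxygenase acting on the actin cytoskeleton, the CON libraries ranged from 87.5% to 96.6% (median 92.9%) and the MET libraries from 96.4% to 100% (median 100%). A difference of 6.98 percentage points was found (unadjusted p = 2.2e-06, adjusted p = 0.302), and 7 of 8 MET libraries were above every CON library. At chr25:34729098, in the homeobox transcription factor gene CUX1, the ranges were 80% to 96.3% (median 92.6%) and 95.2% to 100% (median 100%), a difference of 8.35 percentage points (adjusted p = 0.414). The mean over all 88 sites of CUX1 differed by -0.227 (limma unadjusted p = 0.834), with 41 sites higher and 47 lower. The site chr2:135875176, outside any annotated gene, had no overlap between the diets, from 78.6% to 92.3% (median 86.6%) in CON and from 94.1% to 100% (median 100%) in MET. Its difference was 12.4 percentage points (adjusted p = 0.414), with 12.6 in P and 12.3 in noP.

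At chr21:69784459 in TMEM121, CON ranged from 80% to 91.4% (median 84.6%) and MET from 90% to 100% (median 100%), a difference of 11.7 percentage points (adjusted p = 0.604). At chr7:4718663 in ELL, the gene of an RNA polymerase II elongation factor, the CON libraries lay between 93.8% and 95.8% (median 94.4%). There 7 of the 8 MET libraries were at 100% and the MET_noP library S25 at 92%, for a difference of 4.43 percentage points (adjusted p = 0.604). Without S25 the difference was 5.43 and the adjusted p 0.000768. Another site passed without S25, chr5:113941032 outside annotated genes, lower in MET by -4.2 percentage points (adjusted p = 0.0402), and with S25 its adjusted p was 0.604. There every CON library was at 100%, and the MET libraries ranged from 92.3% to 100%. At each of these sites a whole diet was then at the ceiling of 100%, with no spread between its libraries.

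At the other end were the sites lower in MET. At chr26:50652386, outside annotated genes, CON ranged from 95.2% to 100% (median 100%) and MET from 86.4% to 96.3% (median 92.2%), a difference of -7.16 percentage points (unadjusted p = 3.03e-06, adjusted p = 0.302). At chr22:59194953 in RAB7A, which encodes a small GTPase of late endosomes, the ranges were 98.1% to 100% (median 100%) in CON and 91.7% to 98.3% (median 96.1%) in MET, a difference of -3.63 (adjusted p = 0.414). At chr28:27433014 in UNC5B, the gene of a netrin receptor, the diets did not overlap, with 92.5% to 98.6% (median 96.2%) in CON and 76.1% to 92% (median 86.4%) in MET. That difference was -11.2 percentage points (adjusted p = 0.604). The remaining pair, chr11:103768099 in ENSBTAG00000023064 and chr7:109174285 outside annotated genes, had differences of -8.09 and -8.2 (adjusted p = 0.604 for both). Over all sites, the MET libraries were all above the CON libraries at 38 sites (0.0191%) and all below them at 8 (0.00401%).

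Windows of 1 kb joined neighbouring sites. The window with the lowest p was in ITPR3, which encodes an inositol trisphosphate receptor that releases calcium from the endoplasmic reticulum. Its 3 sites (chr23:7800879-7800915) ranged from 73.6% to 92.9% in CON (median 86.8%) and from 93.3% to 98.1% in MET (median 94.6%), without overlap. The difference was 10.1 percentage points (unadjusted p = 5.54e-06, adjusted p = 0.147), and the sites differed by 10.9, 12.5 and 7.11. The 5 sites of chr24:1165386-1165430, outside annotated genes, were higher by 14.4 percentage points (59.6% to 85.5% in CON, median 78.2%, and 83.9% to 93.8% in MET, median 91.2%, adjusted p = 0.483). A single site, chr24:1165393, had the largest difference there, with means of 50.6% in CON and 87.2% in MET.

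In NPRL3, a component of the GATOR1 complex that restrains mTORC1 when amino acids are scarce, the 3 sites of chr25:154468-154522 ranged from 90.5% to 97.9% in CON (median 95.4%) and from 97.1% to 100% in MET (median 98.7%). That window was higher by 4.01 percentage points (adjusted p = 0.483). The window chr9:103665413-103665936, outside annotated genes, was higher by 4.98 (adjusted p = 0.672). In ADGRB1, an adhesion G protein-coupled receptor gene, the 4 sites of chr14:1823333-1823382 did not overlap between the diets, from 68.3% to 84.5% (median 82.3%) in CON and from 85.2% to 92.4% (median 89.9%) in MET. The window was higher by 9.52 percentage points (adjusted p = 0.672), whereas the mean over all 160 sites of ADGRB1 was lower by -2.03 (unadjusted p = 0.291). ADGRB1 had 58 sites higher and 102 lower, with single differences from -18.2 to 17.9.

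The windows lower in MET at the lowest p included those in CDK5RAP2, ENSBTAG00000054515, UNC5B and PRAG1. The 4 sites of UNC5B at chr28:27433014-27433063, which include the site above, differed by -10.6 percentage points (adjusted p = 0.672). They ranged from 83.1% to 93.2% in CON (median 89.6%) and from 65.7% to 88.6% in MET (median 77.3%), and the differences at the sites were -11.2, -14.4, -5.79 and -10.9. The mean over all 13 sites of UNC5B differed by -2.88 (limma unadjusted p = 0.147). In CDK5RAP2, a centrosome protein gene, the window of 11 sites (chr8:109862105-109862268) differed by -4.99. A single site, chr8:109862114, carried most of this with means of 85.6% in CON and 54.9% in MET. The mean over all 102 sites of CDK5RAP2 differed by -0.835 (limma unadjusted p = 0.277). The window in PRAG1, a pseudokinase gene, differed by -2.19 (adjusted p = 0.672 for the windows in CDK5RAP2 and PRAG1).

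Windows whose 8 MET libraries were all above the 8 CON libraries numbered 6 of 26473 (0.0227%), and 1 was below (0.00378%). Besides ITPR3 and ADGRB1, the 6 were in MAVS and RANBP1 and at chr5:118849908-118849976 and chr24:48076432-48076608 outside annotated genes. These were singled out after their values were seen. The window at chr5:118849908-118849976 was the widest apart, from 54.1% to 66.2% in CON and from 69.2% to 77.2% in MET (adjusted p = 0.672).

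At the level of genes, the value was the mean over all sites of a gene. The 5 genes highest in the order of p in the upward direction were RGS9BP, MIRLET7E, DCPS, SARM1 and ENSBTAG00000046336. RGS9BP, which anchors a regulator of G protein signalling, had 2 sites (chr18:43155200-43155225) that ranged from 5.28% to 14.3% in CON (median 10.4%) and from 13.1% to 22.2% in MET (median 18.4%). The difference was 7.75 percentage points (unadjusted p = 0.000108, adjusted p = 0.426), and 7 of 8 MET libraries were above all CON libraries. MIRLET7E, the gene of a let-7 family microRNA, had 3 sites (chr18:57689052-57689061) that ranged from 39.9% to 60.7% in CON (median 52.4%) and from 59.8% to 68.3% in MET (median 64.0%). It was higher by 13 percentage points (adjusted p = 0.426), with 8.76 in P and 17.3 in noP.

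DCPS, a scavenger enzyme of mRNA decapping, was higher by 3.51 percentage points over 9 sites (89.9% to 94% in CON, median 91%, and 93.4% to 97.3% in MET, median 94.7%). SARM1, an NAD hydrolase that drives axon degeneration, was higher by 4.95 over 7 sites (10.4% to 15.7% in CON, median 13.3%, and 14.5% to 21.9% in MET, median 17.6%). ENSBTAG00000046336 was higher by 3.78 over 3 sites (5.98% to 8.07%, median 7.35%, and 6.19% to 14%, median 11.2%). The adjusted p was 0.505 for these 3 genes. The lowest MET library in ENSBTAG00000046336 was S17 of MET_noP, and without it the gene had a difference of 4.5 and an adjusted p of 0.013. ETV4 and WDTC1 were singled out for the same reason. ETV4 passed only without the CON_P library S30 (difference 4.6, adjusted p = 0.0405, against 3.27 and 0.505 with it). WDTC1 passed only without the CON_noP library S12 (difference 5.29, adjusted p = 0.0292, against 4.02 and 0.575 with it).

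The genes lower in MET at the lowest p were ENSBTAG00000054515, ENSBTAG00000053793, RNF141, TRIM15 and CHEK1. ENSBTAG00000054515 (5 sites, chr27:21787421-21787482) ranged from 92.9% to 97.1% in CON (median 94%) and from 85.9% to 92.6% in MET (median 90.5%). Its difference was -4.46 percentage points (unadjusted p = 0.00012, adjusted p = 0.426), and all 5 sites were lower. It was the 1 gene of 8695 (0.0115%) with every MET library below every CON library. MAVS, an adaptor of antiviral signalling with 3 sites, was the 1 gene (0.0115%) with every MET library above, by 3.46 percentage points (85% to 92.9% in CON and 92.9% to 97.8% in MET, adjusted p = 0.505).

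TRIM15, an E3 ubiquitin ligase of the tripartite motif family, ranged from 58% to 74.4% in CON (median 68.5%) and from 53.4% to 61.7% in MET (median 57.8%), and all 8 of its sites were lower. It differed by -9.23 percentage points (adjusted p = 0.505), with -6.26 in P and -12.2 in noP. ENSBTAG00000053793 differed by -7.49 over 10 sites, all lower. RNF141, a RING finger gene, differed by -3.21 and CHEK1, the DNA damage checkpoint kinase, by -3.47, each over 2 sites of low methylation. CHEK1 ranged from 6.51% to 11.3% in CON (median 10.3%) and from 3.01% to 8.91% in MET (median 6.38%). None of these passed adjustment (adjusted p = 0.505).

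From the genes that the study named for diet, in comparisons made within an outcome on the same libraries, 38 were listed here, and 37 of them could be tested. They are a selection, so their counts do not stand for all the genes it named. The study named them for single CpG sites, whereas the value here is the mean over all sites of a gene. It did not name all of them as higher. ADGRB1, UBE2E2 and TSHZ2 were given as hypomethylated in MET_P compared with CON_P. TBL1X, CDK5RAP2, CACNA1H, RGS3, COL5A1, CCDC88C, CUX1 and AFF3 were given as hypomethylated with methionine in both outcomes. The study's choice used these samples, so the direction of these genes is not independent evidence. None of the 37 passed adjustment. Of the 37, 26 were higher in MET (70.3%, beside 65.4% of all genes) and 11 lower, and 11 (29.7%) were higher at an unadjusted p under 0.05 beside 7.35% of all genes, with 0 lower. The 11 lower were AGO2 and all the genes given above as hypomethylated except TBL1X. The median difference of the 37 was 3.11 percentage points, against 0.554 over all genes. After each library was centred, 25 were higher and 10 had an unadjusted p under 0.05.

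SOX9, a transcription factor of glandular epithelium, had 41 sites (chr19:58919668-58921220) that ranged from 32.5% to 59.1% in CON (median 35%) and from 50.3% to 67.5% in MET (median 53.4%). The mean was higher by 14.5 percentage points (56.1% ± 5.97 against 41.6% ± 11.4, SD, n = 8 each, limma unadjusted p = 0.00516, adjusted p = 0.505), and 40 of the 41 sites were higher. The difference was 17.1 in P and 11.9 in noP. ATP8B1, a phospholipid flippase gene, was higher by 14.8 over 34 sites (27.9% to 64.8% in CON, median 47.8%, and 42.4% to 72.6% in MET, median 62.8%), with 23.1 in P and 6.46 in noP. NEURL1, an E3 ligase of Notch ligands, was higher by 14.4 over 30 sites (31.2% to 76.9%, median 61.0%, and 69.6% to 82.6%, median 75.5%). Its CON libraries were spread over an SD of 15 percentage points and the MET libraries over 4.24.

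FHDC1, a formin that organises actin and microtubules, was higher at 64 of its 65 sites and by 13.8 percentage points in the mean (36.1% to 66.5% in CON, median 51.9%, and 39.8% to 74.6% in MET, median 66.7%). GPR62, an orphan receptor gene, was higher at 58 of 62 sites and by 9.77 (24.4% to 47.5%, median 34.5%, and 38.9% to 51.0%, median 45.1%). NFIX, a nuclear factor I transcription factor, was higher at 104 of 114 sites (45.1% to 58.8%, median 53.5%, and 54.5% to 65.7%, median 58.9%). The difference in NFIX was the most even between the outcomes, 6.84 percentage points in P and 6.89 in noP. The other genes at an unadjusted p under 0.05 were MTCL1 (8.53), ZNF274 (7.79), RASIP1 (7.3), ZNF787 (3.41) and ZNF75D (3.11), the values being differences in percentage points. ZNF274, ZNF787 and ZNF75D encode zinc finger proteins, MTCL1 crosslinks microtubules and RASIP1 binds Ras proteins in endothelium.

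In other genes of that list the outcomes disagreed. SPRED3, an inhibitor of Ras to MAP kinase signalling, was higher by 18.1 percentage points in P and lower by -1.84 in noP, and its MET libraries ranged from 24.5% to 72.3%. RAP1B, a small GTPase gene, differed by 18.8 in P and -2.08 in noP. KIF14, a mitotic kinesin gene, differed by -3.39 in P and 21.1 in noP, and SEMA4B by -4.26 and 9.79. The interaction of diet and outcome did not pass adjustment for any of them (limma adjusted p = 0.894 for SPRED3, RAP1B, KIF14 and SEMA4B). AGO2, the slicing component of RNA interference, had 103 sites and equal means of 75.7% in both diets (difference -0.0238, unadjusted p = 0.978). Its single sites differed by -10.3 to 14.1 percentage points, with 57 higher and 46 lower, so an equal mean does not speak for each site. The most negative gene mean was that of AFF3, at -3.05 (unadjusted p = 0.129).

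**Figure D4:**
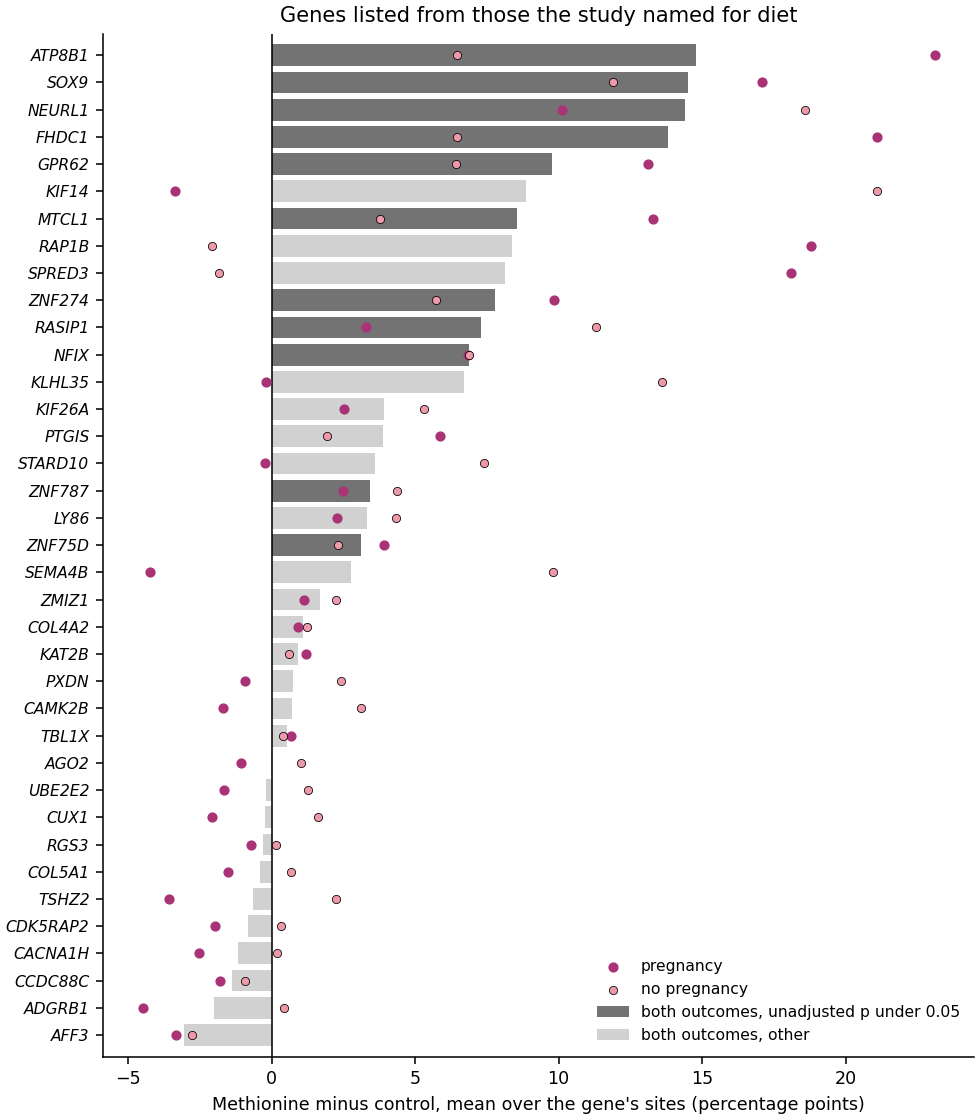
Difference in mean methylation over the sites of each of the 37 listed genes that the study named for diet (rows), MET minus CON in percentage points (x axis). Bars are the mean of the P and noP differences, dark where the unadjusted p was under 0.05, and points are the differences within each outcome. The largest bars, ATP8B1, SOX9, NEURL1 and FHDC1, are between 13.8 and 14.8, while the points of SPRED3, RAP1B, KIF14 and SEMA4B lie on both sides of 0.

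None of the tested genes that handle methionine and the methyl group passed adjustment. Of 54 listed genes of the methionine and folate cycle, 26 could be tested and none had an unadjusted p under 0.05 (0%, beside 7.35% of all genes higher and 1.43% lower). Their median difference was 0.165 percentage points, and 16 of them were higher. FOLR2, a folate receptor gene, had the largest difference, 49.7% in MET and 39.0% in CON (unadjusted p = 0.0506). MAT2A, the enzyme that makes S-adenosylmethionine outside the liver, had means of 9.40% and 8.61%. Among 13 transporters of methionine and neutral amino acids, SLC38A10 was higher (90.4% against 88.4%, limma unadjusted p = 0.0186) and the other members were not past 0.05. Its list had 7.69% higher, near the 7.35% of all genes. None of 13 writers, erasers and readers of DNA methylation had an unadjusted p under 0.05 (0%, beside 7.35% of all genes higher and 1.43% lower). In that list DNMT3A, which places new methyl marks, had means of 61.5% in MET and 60.0% in CON, DNMT3B 61.8% and 61.4%, and TET3, which oxidises them, 86.5% and 85.8%.

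In the Notch signalling list, which guides cell fate in glands, 4 of 31 genes tested were higher at an unadjusted p under 0.05 (12.9%, beside 7.35% of all genes) and 1 was lower (3.23%, beside 1.43%). The higher genes included DTX2, SPEN and ATXN1, and the receptor NOTCH4 was lower, 68.4% against 71.3% (unadjusted p = 0.0414). The receptors NOTCH1, NOTCH2 and NOTCH3 were not past 0.05.

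Of 45 genes of collagen formation, 3 (6.67%, beside 7.35% of all genes) were higher and none lower (beside 1.43%) at that p. The list was thus near the share of all genes. LOXL1, which crosslinks elastin and collagen, was higher by 7.61 percentage points over 37 sites (21.3% to 36.6% in CON, median 31.3%, and 35.7% to 42.0% in MET, median 37.4%, unadjusted p = 0.0044), with 7.64 in P and 7.57 in noP. P4HA3, a subunit of collagen prolyl hydroxylase with 2 sites, was higher by 3.99 (4.19% to 14.4%, median 5.74%, and 7.42% to 13.6%, median 10.5%), and P3H3, a prolyl 3-hydroxylase, had means of 94.0% and 88.7%. No collagen chain gene was among them. Of 68 axon guidance genes, 5 (7.35%) were higher (DSCAM, SEMA6C, PLXNA1, NTNG2 and SEMA4C) and SEMA4D was lower (1.47%), which is near the share of all genes.

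Imprinted genes have regions that are methylated on one parental copy. The labels do not mark such regions, and the value here is the mean over all sites of a gene. Of 17 members tested, 3 were higher at an unadjusted p under 0.05 (17.6%, beside 7.35% of all genes) and none lower. They were MEST (37.3% in MET against 28.5% in CON, unadjusted p = 0.0116), IGF2R (66.9% against 63.5%, 244 sites, unadjusted p = 0.0147) and GNAS (43.0% against 37.0%, 142 sites, unadjusted p = 0.026). IGF2 had the same mean of 36.7% in both diets, and KCNQ1, with 340 sites, had 78.3% and 77.3%. In the list of endometrial steroid, prostaglandin and receptivity genes, 3 of 38 (7.89%) were higher at that p and none lower, which is near the share of all genes. IHH, the progesterone-responsive hedgehog ligand of the uterine epithelium, was higher by 6.29 percentage points in the mean of 2 sites (9.41% to 22.8% in CON, median 16.3%, and 17.6% to 25.6% in MET, median 23.3%, limma unadjusted p = 0.00511). Only 1 of its sites was higher, by 12.9 percentage points, and the other differed by -0.339. The other higher genes were SOX9, described above, and PTGDS, a prostaglandin D synthase (56.0% against 49.7%, limma unadjusted p = 0.019). The receptors ESR1 and PGR had 87.1% against 84.7% and 13.2% against 14.3% (unadjusted p = 0.308 and 0.6).

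Cytobrush samples can hold other cells beside epithelium, so markers of several cell types were listed as well. Methylation of a marker gene does not give the share of its cells, and the part of cell composition in the differences was not tested. The mean over 18 epithelial marker genes ranged from 32.5% to 44.1% in CON and from 32.2% to 44.3% in MET. For 27 leukocyte marker genes it ranged from 54.5% to 61.2% and from 55.1% to 59.2%, and for 13 stromal and endothelial marker genes from 57.7% to 59.7% and from 57.9% to 60.3%. The differences were -0.426, 0.0291 and 0.73 percentage points. Among the leukocyte genes MPO was higher (3.7%, beside 7.35% of all genes) and CD79B and ITGAL lower (7.41%, beside 1.43% of all genes) at an unadjusted p under 0.05. Among the epithelial genes KRT14 was higher (5.56%), and none of the stromal and endothelial genes was past that p. KRT14, a keratin of basal epithelium with 3 sites, ranged from 87.6% to 94.4% in CON (median 92.5%) and from 94.1% to 97.6% in MET (median 95.3%), a difference of 3.42 percentage points (unadjusted p = 0.002). The members of the lists that are named with an unadjusted p of 0.01 or more were chosen after their values were seen. No list had a member past an adjusted p of 0.05.

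**Figure D5:**
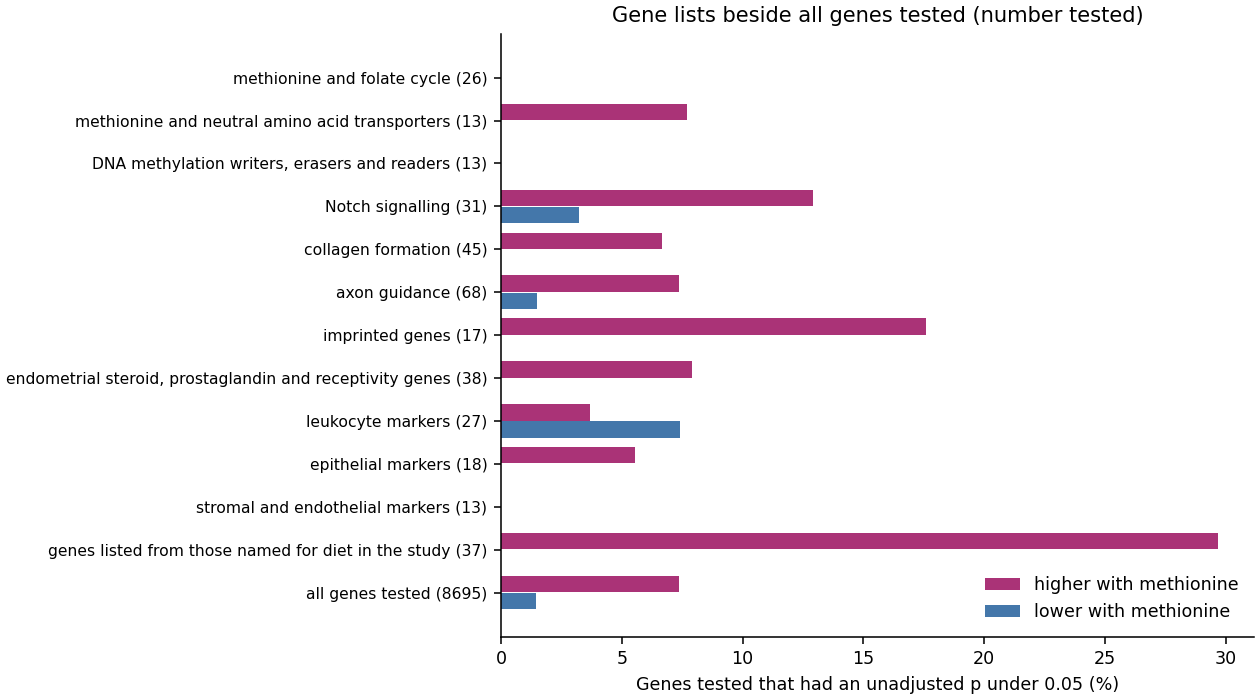
Share of the tested genes of each list with an unadjusted p under 0.05, in percent (x axis), higher or lower in MET, beside all 8695 genes (bottom row). The number of genes tested stands after each name. The genes listed from those named for diet in the study reach 29.7% and were chosen on these libraries, and the other lists lie between 0% and 17.6% beside 7.35% for all genes.

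Whether the diet difference depended on outcome was tested with the interaction term in limma. Of the sites, 2 (0.001%) passed an adjusted p of 0.05, of the windows 1 (0.00378%) and of the genes 0 (0%), while 10467 sites (5.25%), 1454 windows (5.49%) and 468 genes (5.38%) had an unadjusted p under 0.05. The site chr27:38936982 in PSD3, which encodes an exchange factor for small ARF GTPases, had group means of 100% in CON_P, 93.6% in MET_P, 93.0% in CON_noP and 99.6% in MET_noP. MET was thus lower by -6.35 percentage points in P and higher by 6.6 in noP (adjusted p = 0.015). At chr17:63124677, outside annotated genes, the means were 63.9% in CON_P, 97.9% in MET_P, 94.2% in CON_noP and 74.0% in MET_noP (adjusted p = 0.0229). That window of 3 sites (chr17:63124661-63124680) differed by 12.5 in P and -8.77 in noP (adjusted p = 0.019). In both regions the pooled difference was near 0 or within the spread, 0.124 percentage points at the PSD3 site and 6.91 at the site on chromosome 17.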

How the data were processed

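Endometrial cytobrush DNA of 16 libraries was profiled by RRBS. Reads were trimmed by the authors (Trim Galore), mapped with Bismark on ARS-UCD1.2 and merged per library, and single cytosines above a minimum read count were quantified in SeqMonk, leaving out positions without a valid value or at zero. The deposited values are percent methylation per site and library, without counts, so depth and counting intervals are unknown. By the study's account mean raw read yield per replicate differed between groups and was highest in MET_P and lowest in CON_P. Yield thus differed between the diets within P, and its part in the differences was not tested here. No value was 0 and the lowest was 1%, so sites unmethylated in any library are absent from the low class.

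The group name over a column gave its group. Percentages were transformed to M = log2((percent + 1)/(100 - percent + 1)) and tested in limma 3.58.1 (R 4.3.3) with diet and outcome as terms, empirical Bayes moderation without trend and Benjamini-Hochberg adjustment at 0.05, over sites, 1 kb windows with at least 3 sites and genes with at least 2 sites. The names of 13 genes that cover several genes or chromosomes were left out. Differences in percentage points are the mean of the P and noP differences. One value per library was compared by two-sided exact permutation of diet within outcome, adjusted over 7 genome-wide values, 30 chromosomes, 4 islands and 4 tests across outcomes. Values per library were computed in Python 3.11.15 (pandas 2.3.3, numpy 2.4.6) and drawn with matplotlib 3.10.9. The tests were checked on simulated data.

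The members, lists, islands and tests were chosen with earlier results of these data known. Named features are the 5 with the lowest p in each direction for sites, windows and genes, 38 of the genes the study named for diet, and list members with an unadjusted p under 0.01 (at most 4 per list). Some features that this rule names are not reported here. The lists shared members, and 8 of these 38 genes were in another list. The alternatives were other scales, offsets, moderation, covariates, centring, blocks, windows, site minimums, subsets of libraries and each library left out.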

Additional observations from a re-analysis of the deposited data

Results flagged for a closer look

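In 16 of the 168 sets of 8 libraries checked (each named feature or library value within a diet), 1 library stood apart from the other 7. About 1 in 20 such sets is picked by chance. The MET_noP library S25 was the one apart in several MET sets. It was at 92.0% at the ELL site where the rest were at 100%, and at 91.7% at the RAB7A site, where the rest lay between 95.6% and 98.3%. Its gene means were 50.5% in MTCL1, 39.8% in FHDC1 and 24.5% in SPRED3, below the others, which began at 62.1%, 58.1% and 50.3%. They were 86.1% in PXDN and 67.0% in SEMA4B, above the others, which ended at 83.4% and 50.2%.

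Other libraries stood apart in single values. In the class of sites under 20%, the MET_noP library S17 had 10.3% and the other MET libraries 11.8% to 12.8%. The CON_P library S14 had 98.1% at the RAB7A site where the other CON libraries had 100%. The CON_noP library S12 had 84.2% in ZNF274 (others up to 72.6%) and the CON_P library S26 had 14.4% in P4HA3 (others up to 6.46%). Among MET libraries, S29 of MET_noP had 93.2% in the window chr9:103665413-103665936 (others from 95.8%) and 86.9% in UBE2E2 (others up to 83.9%). The MET_P library S15 had 75.6% in RGS3 (others up to 72.3%) and 62.8% in ZMIZ1 (others up to 58.5%), and the MET_noP library S13 had 82.7% in KAT2B (others from 84.7%).

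The diet difference itself differed between the outcomes at 3 features in the limma interaction test. They were the site chr27:38936982 in PSD3 (adjusted p = 0.015), the site chr17:63124677 (adjusted p = 0.0229) and the window chr17:63124661-63124680 that holds the latter (adjusted p = 0.019).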

How the results depend on the processing

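No paired analysis was possible because, as far as the replicate numbers of the labels go, the columns carry none. The 4 sets of consecutive library numbers, each with 1 library of every group, were used as a block in their place. Deviations from the group means over sites correlated by -0.132 to 0.117 within sets, over 0.1 in 2 of 24 pairs. With this block 0 sites, windows, genes, chromosomes and genome-wide values passed (lowest adjusted p 0.117 for chromosomes and 0.128 genome-wide), while the islands on chromosomes 27 (6.07), 18 (5.92) and 2 (4.36) did. For values per library it was added after the data were seen. The settings that gave a count above 0 were the following. With each library left out, sites ranged from 0 to 2 and genes from 0 to 1, and windows with any number of sites gave 1 (in MICAL3). As the median over sites, 1 chromosome passed (chromosome 10, 2.79 percentage points, adjusted p = 0.0245). With each library left out, the islands ranged from 4.68 to 7.69 (chromosome 27), from 4.7 to 7.17 (18) and from -0.626 to 0.566 (21), sites chosen as higher and as lower in noP ranged from -0.382 to 1.7 and from -0.018 to 0.168 in P, and the values of the intermediate class, sites outside genes and the share above 20% ranged from 0.905 to 2.23, from 0.376 to 0.986 and from 0.783 to 2.03. The cause was not tested.

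In libraries 12 to 19 the intermediate class was at -0.239 and sites outside genes at -0.21, and in libraries 24 to 31 the chromosome 21 island was at 0.00898. Listed genes named for diet changed sign as follows, none of them called. Centring gave CAMK2B -0.275. P alone gave PXDN -0.928, KLHL35 -0.205, KIF14 -3.39, SEMA4B -4.26, STARD10 -0.219 and CAMK2B -1.7. NoP alone gave AGO2 1.02, SPRED3 -1.84, RAP1B -2.08, ADGRB1 0.431, UBE2E2 1.27, TSHZ2 2.25, CDK5RAP2 0.311, CACNA1H 0.166, RGS3 0.15, COL5A1 0.671 and CUX1 1.62. Libraries 12 to 19 gave PXDN -0.606, SEMA4B -3.14, TBL1X -0.203, COL4A2 -2.75 and RGS3 0.00912. Libraries 24 to 31 gave AGO2 1.97, SPRED3 -5.4, ADGRB1 1.69, UBE2E2 0.879, TSHZ2 1.79, CACNA1H 0.872, COL5A1 0.268 and CUX1 0.196. The median over sites gave AGO2 0.842, UBE2E2 0.763, TSHZ2 0.14, STARD10 -2.14, RGS3 3, COL5A1 0.248, CCDC88C 0.378, CUX1 0.756 and CAMK2B -0.782. With each library left out, AGO2 ranged from -0.634 to 0.666, UBE2E2 from -0.591 to 0.118, TSHZ2 from -1.58 to 0.168, TBL1X from -0.275 to 1.1, RGS3 from -0.859 to 0.233 and CUX1 from -0.709 to 0.2. All values are differences in percentage points, MET minus CON. Depth at each site is unknown, so a percentage cannot be told from its counting error.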
